A study of Mus musculus with 27 samples.

Results

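Fibroblast growth factors (FGFs) keep a limb bud growing by signalling from its ectodermal rim to the mesenchyme, and 10 genes that cells switch on or raise in answer to that signal are described here across developing tissues and limb bud-like tissues made from mouse embryonic stem cells. They were chosen by name, as well-known targets and brakes of the FGF pathway, and are 10 of the 23279 genes listed in the deposited table. Etv1, Etv4 and Etv5 encode the PEA3 group of ETS transcription factors, the nuclear effectors of FGF signalling. Dusp6 and Dusp4 encode phosphatases that remove the activating phosphates from ERK, in the cytoplasm and in the nucleus respectively. Spry1, Spry2, Spry4 and Spred1 encode membrane-associated inhibitors that act on the Ras to Raf step. Il17rd encodes Sef, a transmembrane inhibitor of FGF signalling.

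FGF binding to its receptor starts a relay from the adaptor Frs2 through Ras, Raf and Mek to the kinase ERK, and ERK activity raises the transcription of the genes above. As most of the Dusp, Spry, Spred and Sef products slow the same relay, the genes are both a readout of the pathway and a negative feedback on it. In limb buds, Fgf8 and Fgf4 from the apical ectodermal ridge (AER) act on the mesenchyme, and mesenchymal Fgf10 acts back on the ectoderm.

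The study compared mesenchyme of mouse ES cell-derived forelimb and hindlimb bud-like tissues (ES–FLB and ES–HLB, together ES–LBs) with early and E10.5 forelimb and hindlimb buds (FLB and HLB) and with other parts of E10.5 embryos, namely tail bud (TB), heart (Ca) and branchial arch (BA), to ask how far the cultured mesenchyme resembles limb buds. The embryos were of strain Slc:ICR, and the ES–LBs came from the line EB5 Hand2::GFP +/-, which carries a green fluorescent reporter in 1 allele of the gene of the mesenchymal factor Hand2. ES cells were kept with LIF and 2i, which holds the Mek inhibitor PD0325901, then aggregated and given BMP4 and Matrigel. Aggregates for the forelimb type received retinoic acid (RA) and those for the hindlimb type the RA antagonist AGN193109, and both had hydrocortisone, methylcellulose, a BMP inhibitor (LDN193189) and Wnt3 thereafter. The labels name no FGF among the additions. On day 9, Hand2::GFP-positive cells were dissociated with trypsin and sorted from many aggregates, so that the ES–LB libraries hold cells of 1 reporter line gated away from the epithelium around them, whereas the embryonic pieces were whole, ectoderm included. The labels give E10.0 for both kinds of early limb bud, and the figure legend of the study gives different days for the early FLBs and HLBs, so that stage and limb type cannot be told apart between these early groups. The methods name 3 embryos as the source of the tissues, and the sources used here do not say whether the libraries of a group came from separate embryos or cultures. The p-values measure only the spread between libraries, which may be technical.

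Each group had 3 libraries. Replicate 2 of the E10.5 HLBs was left out, because its column holds no values on several chromosomes, and this group is shown with 2 libraries. The 26 libraries used held an estimated 5543757 to 22142306 reads on genes, most in the early limb buds and fewest in the E10.5 limb buds. A level of 3 reads corresponded to 0.135 to 0.541 reads per 1000000 counted (CPM), a floor that covers counting error only, and all 10 genes lay far above it in all 26 libraries. Levels are CPM after scaling the libraries to each other. The test was limma's, run on log2(CPM + 0.5), which slightly understates folds of low genes. A gene was called changed at an adjusted p (Benjamini-Hochberg over the 14438 genes tested) below 0.05. In whole tissue, fewer cells of a type and less RNA per cell cannot be told apart.

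The summed level of 10 limb bud mesenchyme markers was 1587 to 2233 scaled CPM in the limb buds, 1947 to 2085 in the ES–LBs, 1579 to 1626 in BA, 474 to 587 in Ca and 459 to 504 in TB. Single markers of this list went both ways. In ES–FLB 4 were higher and 3 lower than in the early FLBs, beside 35.3% and 41.4% of all genes tested. In ES–HLB 5 were higher and 5 lower than in the early HLBs, beside 34.8% and 40.5%. Against E10.5 limb buds of the same type, ES–FLB had 3 higher and 6 lower, beside 32.9% and 35.7%. There ES–HLB had 4 higher and 5 lower, beside 32.9% and 35.6%. AER markers (6 genes, Fgf8 and Fgf4 among them) summed to 135 to 165 in the early limb buds, 53.0 to 82.5 at E10.5 and 5.36 to 10.9 in the ES–LBs. Surface ectoderm markers (10 genes) summed to 298 to 523 in the limb buds, 111 to 165 in ES–FLB and 209.7 to 225 in ES–HLB, and endothelial markers (6 genes) to 299 to 429 in the limb buds and 32.8 to 53.7 in the ES–LBs. Embryonic red cell markers (5 genes) summed to 2304 to 6770 in the limb buds, 5.13 to 7.79 in ES–FLB and 83.0 to 156 in ES–HLB. Pluripotency markers (4 genes) summed to 10.47 to 16.1 in ES–FLB, 45.6 to 65.9 in ES–HLB and 0.364 to 2.21 in the limb buds. Branchial arch markers (5 genes) summed to 444 to 454 in BA. Of the markers of these lists, only Pou5f1 and Nanog were listed at 0 throughout a limb bud or ES–LB group, in the E10.5 HLBs. The part of these cell types in the results was not tested.

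All 10 genes are protein coding on GRCm38. Etv4 spans chr11:101769747-101785310, Etv5 chr16:22381313-22439570 and Etv1 chr12:38780082-38870483. Dusp6 lies at chr10:99263231-99267489 and Dusp4 at chr8:34807610-34819894. Spry1 lies at chr3:37639947-37644599 and Spry2 at chr14:105891947-105896819, on the same chromosome as Il17rd at chr14:27038964-27107286, and Spred1 spans chr2:117121071-117182279. An unnamed transcript model on the opposite strand overlaps Spry1, and the strand setting of the counting is not given in the sources used here, so reads of the pair could be shared. Per kilobase of merged exons, Dusp6 had the highest level of the 10 genes in all 9 groups, from 19.6 scaled CPM per kilobase in Ca to 100.03 in the early HLBs, and Etv1 the lowest, from 0.636 in TB to 2.09 in ES–FLB. In the early HLBs, Etv5 followed with 39.3 scaled CPM per kilobase and Etv4 with 28.2, and in TB the level per kilobase of Dusp4 (29.0) came next to that of Dusp6 (36.02).

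RefSeq promoter windows on GRCm38 were at hand for 7 of the 10 genes, in 9 windows of 250 bases before a start site (Etv1 and Etv5 have 2 each). They were searched on both strands for CGGAAG, the core bound by ETS factors such as the Etv proteins, and for TGAATG, the core shared by the octamers TGAATGAA and TGAATGGA of Capicua (Cic), the repressor that ERK relieves. CGGAAG was found in 2 of the 9 windows, those of Dusp6 and Spred1, and in 13.6% of all 32851 promoter windows. TGAATG was found in the windows of Dusp6 and of the inner start site of Etv5, and in 10.9% of all windows. At Etv5 it occurred 3 times, beginning 242, 198 and 129 bases before the start, and 0.131% of all windows held 3 or more. Neither octamer was in the 9 windows (1.08% and 1.01% of all windows), nor was the cAMP response element TGACGTCA (1.55%). These are matches of letters and not measured binding sites, and the count of 3 was looked for after the matches were seen. The windows that hold CGGAAG or TGAATG are shown, with CGGAAG and TGAATG, or their reverse complements, in capitals. They read 5′ to 3′ on the strand of the gene, at chr10:99262981-99263230 (+), chr16:22438369-22438618 (-) and chr2:117120821-117121070 (+), and none overlaps an annotated exon.
Dusp6: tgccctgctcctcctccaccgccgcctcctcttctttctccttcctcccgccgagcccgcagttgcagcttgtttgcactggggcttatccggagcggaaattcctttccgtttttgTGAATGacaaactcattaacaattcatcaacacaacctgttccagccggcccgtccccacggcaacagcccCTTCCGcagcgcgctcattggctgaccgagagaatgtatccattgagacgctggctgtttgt
Etv5: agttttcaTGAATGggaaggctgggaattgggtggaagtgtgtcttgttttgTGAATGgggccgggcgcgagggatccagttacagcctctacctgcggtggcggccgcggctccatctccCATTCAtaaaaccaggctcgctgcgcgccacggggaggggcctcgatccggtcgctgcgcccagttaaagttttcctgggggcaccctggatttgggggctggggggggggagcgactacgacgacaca
Spred1: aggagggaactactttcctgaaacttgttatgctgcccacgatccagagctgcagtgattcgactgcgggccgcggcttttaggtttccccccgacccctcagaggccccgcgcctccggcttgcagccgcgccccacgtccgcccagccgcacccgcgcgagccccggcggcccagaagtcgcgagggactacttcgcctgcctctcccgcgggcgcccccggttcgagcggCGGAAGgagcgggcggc

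**Figure D1:**
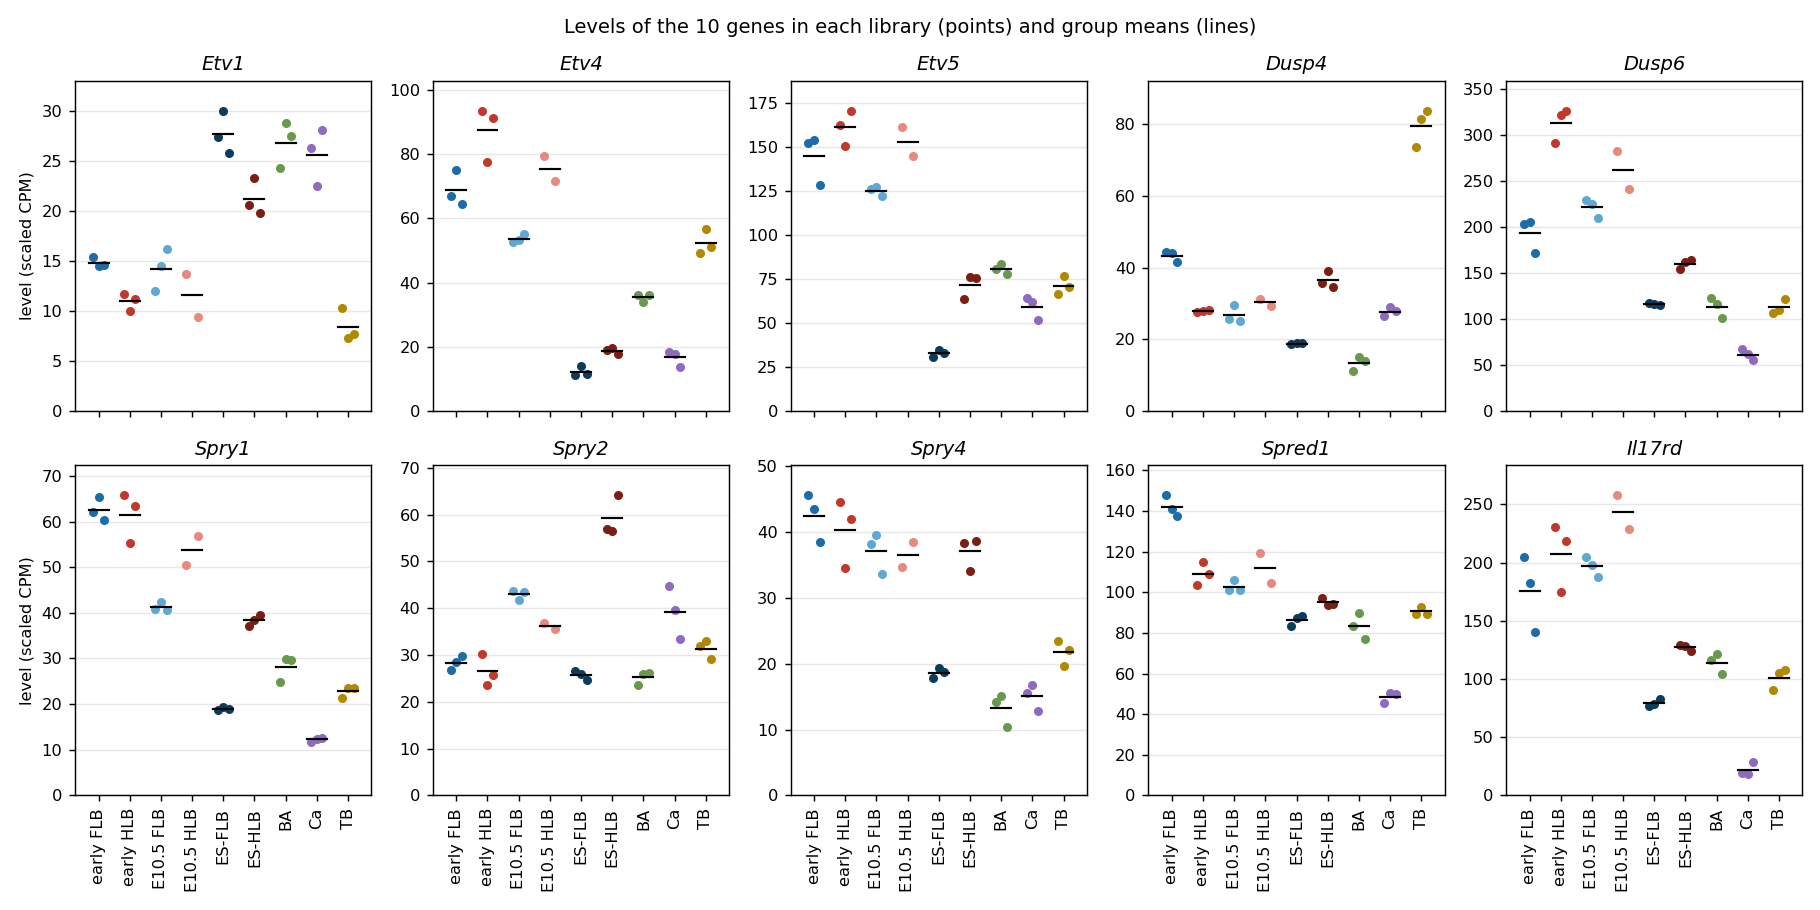
Level of each of the 10 genes (scaled CPM, linear axis from 0) in each of the 26 libraries (points), by group, with the group mean (line). Etv4 and Etv5 are highest in the limb buds and lowest in ES–FLB, Etv1 is highest in the ES–LBs, BA and Ca, Dusp4 peaks in TB at 73.5, 81.4 and 83.6, Spry2 peaks in ES–HLB at 56.9, 56.6 and 64.1, and Il17rd is lowest in Ca at 19.5, 18.3 and 28.4.

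The PEA3 factors Etv4 and Etv5 were high in limb buds and low in the sorted ES–LB mesenchyme, while Etv1 was low in limb buds. Etv4 was at 67.0, 75.1 and 64.4 scaled CPM in the early FLB libraries and at 93.4, 77.5 and 91.4 in those of the early HLBs. At E10.5, its levels were 52.6, 53.3 and 55.1 in the FLBs and 79.3 and 71.7 in the HLBs. The ES–FLB libraries held 11.2, 14.05 and 11.6 scaled CPM of Etv4, and the ES–HLB libraries 19.0, 19.6 and 17.7. No library of the ES–LBs reached the lowest library of the limb buds. In the other tissues Etv4 was at 36.1, 34.0 and 36.1 in BA, 18.5, 17.9 and 13.8 in Ca and 49.4, 56.6 and 51.2 in TB. TB lay near the E10.5 FLBs (adjusted p = 0.781) and Ca near ES–HLB (adjusted p = 0.102). Along the 9 groups, the mean of Etv4 ran from the early HLBs (87.4 ± 8.65, SD, n = 3) to ES–FLB (12.3 ± 1.55, SD, n = 3), a 7.12-fold span with a limma adjusted p of 2.49e-22. Of its 8 pairs of neighbouring groups 4 differed past the threshold, and those from the early HLBs to the E10.5 HLBs and on to the early FLBs did not (adjusted p = 0.139 and 0.316).

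Etv5 followed nearly the same order. Etv5 was at 153, 154 and 128 scaled CPM in the early FLB libraries and at 163, 151 and 171 in those of the early HLBs. The FLBs of E10.5 held 126, 127 and 122 and the HLBs 161 and 145. In culture, Etv5 was at 30.5, 34.9 and 33.2 scaled CPM in ES–FLB and at 63.8, 76.0 and 75.7 in ES–HLB. ES–FLB was lowest of all groups, and each ES–HLB library was above each ES–FLB library. Its levels elsewhere were 80.7, 83.3 and 77.8 in BA, 64.3, 61.8 and 51.6 in Ca and 66.7, 76.6 and 70.7 in TB. The limb buds lay above every other library. Neighbours that did not differ past the threshold were the early HLBs, the E10.5 HLBs and the early FLBs (adjusted p = 0.571 and 0.488), BA and ES–HLB (adjusted p = 0.0671), and ES–HLB and TB (adjusted p = 0.937). The other 4 of the 8 neighbouring pairs differed, down to the last step from Ca to ES–FLB (log2 difference 0.84, SE 0.081, adjusted p = 1.24e-10).

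Etv1, the sister gene of this group, had another order, with ES–FLB, BA, Ca and ES–HLB above the limb buds. Etv1 was at 15.4, 14.5 and 14.6 scaled CPM in the early FLB libraries and at 11.7, 9.99 and 11.3 in those of the early HLBs. At E10.5, its levels were 12.1, 14.5 and 16.2 in the FLBs and 13.7 and 9.39 in the HLBs. The ES–FLB libraries held 27.4, 30.0 and 25.8 scaled CPM of Etv1, and the ES–HLB libraries 20.6, 23.3 and 19.8. Each ES–LB library was above each limb bud library. In the other tissues Etv1 was at 24.3, 28.8 and 27.5 in BA, 26.3, 22.5 and 28.1 in Ca and 10.3, 7.31 and 7.75 in TB. TB held the lowest level. ES–FLB, BA, Ca and ES–HLB did not differ from their neighbours in that order (adjusted p = 0.77, 0.65 and 0.064), nor did neighbouring limb bud groups (adjusted p = 0.689, 0.138 and 0.835). Limb bud groups farther apart in the order did differ. The early HLBs were below the early FLBs and the E10.5 FLBs (adjusted p = 0.0204 and 0.0222), and the E10.5 HLBs below the early FLBs (adjusted p = 0.0377). The steps that passed were the one from ES–HLB to the early FLBs (log2 difference 0.50, SE 0.13, adjusted p = 0.000935) and the last one, from the early HLBs to TB (log2 difference 0.37, SE 0.13, adjusted p = 0.0176).

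The ratio of Etv1 to Etv4 reads within a library does not depend on the scaling of the libraries, but does depend on the lengths of the transcripts, so that it can be compared only between groups. It was 0.216 ± 0.0207 (SD, n = 3) in the early FLBs and 0.126 ± 0.00286 in the early HLBs. In ES–FLB it was 2.27 ± 0.160 and in ES–HLB 1.13 ± 0.0503 (SD, n = 3 each). It was thus higher in the ES–LBs than in the early limb buds of either type. Ca stood with the ES–LBs, at 1.57 ± 0.407 (SD, n = 3), and TB with the limb buds, at 0.163 ± 0.0410 (SD, n = 3). BA lay between them, at 0.761 ± 0.0871 (SD, n = 3).

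Of the ERK phosphatases, Dusp6 was highest in the hindlimb buds, and Dusp4 was highest in the tail bud. Dusp6 was at 203, 206 and 172 scaled CPM in the early FLB libraries and at 291, 322 and 326 in those of the early HLBs. The FLBs of E10.5 held 229.7, 225 and 210.2 and the HLBs 283 and 241. In culture, Dusp6 was at 118, 117 and 115 scaled CPM in ES–FLB and at 154, 162 and 164 in ES–HLB. The hindlimb type was the higher in each pair, without overlap, though at E10.5 the difference did not pass the test. Its levels elsewhere were 122, 116 and 101 in BA, 67.3, 61.8 and 55.0 in Ca and 107, 109.7 and 122 in TB. Ca was lowest, below each other group. ES–FLB, BA and TB could not be ranked (adjusted p = 0.629 and 0.997), nor could the E10.5 HLBs and FLBs (adjusted p = 0.0549). The other 5 steps passed, with the largest from TB to Ca (log2 difference 0.88, SE 0.08, adjusted p = 2.7e-10).

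Dusp4, the nuclear phosphatase, was spread otherwise. Dusp4 was at 44.3, 44.0 and 41.7 scaled CPM in the early FLB libraries and at 27.7, 28.0 and 28.2 in those of the early HLBs. At E10.5, its levels were 25.6, 29.4 and 25.1 in the FLBs and 31.1 and 29.4 in the HLBs. The ES–FLB libraries held 18.6, 18.9 and 18.9 scaled CPM of Dusp4, and the ES–HLB libraries 35.8, 39.2 and 34.4. Between the early limb buds the forelimb was the higher, and between the ES–LBs the hindlimb type, with no overlap. In the other tissues Dusp4 was at 11.1, 15.1 and 13.99 in BA, 26.4, 29.0 and 27.8 in Ca and 73.5, 81.4 and 83.6 in TB. The TB level was 5.93 times that of BA, the lowest group, and exceeded the next group, the early FLBs (log2 difference 0.87, SE 0.087, adjusted p = 4.19e-10). The E10.5 HLBs, early HLBs, Ca and E10.5 FLBs were not told apart as neighbours (adjusted p = 0.416, 0.901 and 0.58), and the 5 other steps passed. Within libraries the ratio of Dusp4 to Dusp6 ran from 0.0895 ± 0.00474 in the early HLBs to 0.706 ± 0.0316 in TB (SD, n = 3 each), with 0.228 ± 0.0162 in ES–HLB and 0.161 ± 0.00339 in ES–FLB. The early FLBs were close to ES–HLB, at 0.225 ± 0.0154, with Ca at 0.456 ± 0.0577 and BA at 0.120 ± 0.0256 (SD, n = 3 each).

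Among the Sprouty genes, Spry1 and Spry4 were high in limb buds, and Spry2 was highest in ES–HLB. Spry1 was at 62.0, 65.3 and 60.3 scaled CPM in the early FLB libraries and at 65.7, 55.3 and 63.4 in those of the early HLBs. The FLBs of E10.5 held 40.7, 42.4 and 40.6 and the HLBs 50.5 and 56.9. In culture, Spry1 was at 18.8, 19.4 and 18.9 scaled CPM in ES–FLB and at 37.0, 38.5 and 39.5 in ES–HLB. ES–HLB lay just under the E10.5 FLBs (adjusted p = 0.236), and ES–FLB lay below every limb bud library. Its levels elsewhere were 24.8, 29.9 and 29.7 in BA, 11.7, 12.4 and 12.6 in Ca and 21.5, 23.4 and 23.6 in TB. Of the 8 steps of Spry1 5 passed, and those from the early FLBs to the early HLBs and on to the E10.5 HLBs did not (adjusted p = 0.882 and 0.094).

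Spry4 lies at chr18:38586247-38601347 and holds models of 2 small RNAs on the opposite strand. Spry4 was at 45.5, 43.5 and 38.5 scaled CPM in the early FLB libraries and at 44.5, 34.5 and 42.0 in those of the early HLBs. At E10.5, its levels were 38.2, 39.5 and 33.6 in the FLBs and 34.6 and 38.4 in the HLBs. The ES–FLB libraries held 17.9, 19.3 and 18.7 scaled CPM of Spry4, and the ES–HLB libraries 38.4, 34.1 and 38.7. ES–HLB lay within the range of the limb buds and ES–FLB below it. In the other tissues Spry4 was at 14.1, 15.1 and 10.3 in BA, 15.6, 16.8 and 12.8 in Ca and 23.4, 19.7 and 22.1 in TB. The largest step of Spry4, from the E10.5 HLBs to TB, passed (log2 difference 0.74, SE 0.13, adjusted p = 2.97e-05). The early FLBs, early HLBs, ES–HLB, E10.5 FLBs and E10.5 HLBs could not be ranked (adjusted p = 0.732, 0.375, 0.998 and 0.945). Of the low groups, only the step from ES–FLB to Ca passed (adjusted p = 0.0173).

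Spry2 was at 26.8, 28.5 and 29.7 scaled CPM in the early FLB libraries and at 30.2, 23.6 and 25.7 in those of the early HLBs. The FLBs of E10.5 held 43.6, 41.8 and 43.6 and the HLBs 36.8 and 35.6. Both limb types were higher at E10.5 than at the early stage. In culture, Spry2 was at 26.7, 25.9 and 24.7 scaled CPM in ES–FLB and at 56.9, 56.6 and 64.1 in ES–HLB. Its levels elsewhere were 23.5, 26.01 and 26.2 in BA, 44.7, 39.7 and 33.5 in Ca and 31.9, 32.9 and 29.2 in TB. ES–HLB was highest and stood above the next group, the E10.5 FLBs (log2 difference 0.45, SE 0.09, adjusted p = 4.89e-05). No other step of its 8 passed, with adjusted p from 0.1 to 0.78. The ratio of Spry2 to Spry1 within libraries was 0.454 ± 0.0338 in the early FLBs, 0.431 ± 0.0274 in the early HLBs, 1.35 ± 0.0562 in ES–FLB, 1.54 ± 0.0764 in ES–HLB and 3.21 ± 0.578 in Ca (SD, n = 3 each). TB was close to ES–FLB, at 1.38 ± 0.127, the E10.5 FLBs were at 1.04 ± 0.0502 and BA at 0.899 ± 0.0415 (SD, n = 3 each). The E10.5 HLBs were at 0.677 ± 0.0722 (SD, n = 2).

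Spred1, which recruits the Ras inactivator Nf1 to the membrane, had one of the smaller spans of group means (2.93-fold, with 2.34-fold for Spry2), and Il17rd had the largest. Spred1 was at 148, 141 and 138 scaled CPM in the early FLB libraries and at 103, 115 and 109 in those of the early HLBs. At E10.5, its levels were 101, 106 and 101 in the FLBs and 119.6 and 105 in the HLBs. The ES–FLB libraries held 83.5, 87.6 and 88.5 scaled CPM of Spred1, and the ES–HLB libraries 97.0, 93.7 and 94.3. The early FLBs stood above all other groups. In the other tissues Spred1 was at 83.2, 89.9 and 77.0 in BA, 45.3, 50.5 and 49.7 in Ca and 89.5, 92.7 and 89.6 in TB. Only its first step, from the early FLBs to the E10.5 HLBs (log2 difference 0.34, SE 0.066, adjusted p = 6.68e-05), and its last, from BA to Ca (log2 difference 0.77, SE 0.059, adjusted p = 1.97e-13), passed, and the 6 steps between had adjusted p from 0.0933 to 0.72.

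Il17rd was at 204, 183 and 140.4 scaled CPM in the early FLB libraries and at 230.4, 175 and 218 in those of the early HLBs. The FLBs of E10.5 held 205, 198 and 187 and the HLBs 258 and 229. In culture, Il17rd was at 76.6, 78.3 and 83.2 scaled CPM in ES–FLB and at 129, 129 and 124 in ES–HLB. Both ES–LBs were below each limb bud library. Its levels elsewhere were 117, 122 and 104 in BA, 19.5, 18.3 and 28.4 in Ca and 90.7, 105 and 108 in TB. In Ca, Il17rd was lower than in every other group, 11.01-fold below the E10.5 HLBs by the means. As neighbours, the 4 limb bud groups were not told apart (adjusted p = 0.309, 0.728 and 0.308), nor were ES–HLB, BA and TB (adjusted p = 0.353 and 0.359). Farther apart in the order, the E10.5 HLBs exceeded the early FLBs (adjusted p = 0.0225), and ES–HLB exceeded TB (adjusted p = 0.0496). The 3 steps that passed were from the early FLBs to ES–HLB (adjusted p = 0.0101), from TB to ES–FLB (adjusted p = 0.0416) and from ES–FLB to Ca (log2 difference 1.85, SE 0.15, adjusted p = 1.01e-09).

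Over the 9 group means of log2 level, Dusp6, Spry1 and Il17rd followed each other most closely, with r of 0.94 for Dusp6 and Spry1, 0.93 for Dusp6 and Il17rd and 0.91 for Spry1 and Il17rd, and Spred1 joined them with r of 0.90 to Spry1 and 0.91 to Il17rd. Etv4 and Etv5 had r = 0.92. Etv1 ran against Etv4 (r = -0.82), and Spry2 and Dusp4 followed few of the others, with r of -0.24 for Etv4 and Spry2 and 0.07 for Dusp4 and Dusp6. These values describe 9 points that share the scaling, the tissue pieces and the sort. Among 12377 other genes with a group mean of at least 5 CPM, the gene most like Etv4 was the ligand Fgf8, an AER gene, with r = 0.99. The 3 most alike genes, with r over the 9 groups, were Fgf8 (0.99), Naa40 (0.99) and Rpa2 (0.99) for Etv4, Ehd3 (0.97), Nupl2 (0.96) and Svopl (0.95) for Etv5 and Usp27x (0.93), Frat2 (0.93) and Tceal1 (0.93) for Etv1. For Dusp6 they were Hpse2 (0.97), Ikzf5 (0.95) and Mtap9 (0.94), and for Dusp4 Cited2 (0.95), Nap1l5 (0.92) and Greb1l (0.90). Spry1 was most like Arfgap2 (0.97) and Slc38a1 (0.96), Spry2 most like Atg16l2 (0.90), Hook1 (0.88) and Fam113b (0.86) and Spry4 most like Ets2 (0.96), Mnd1 (0.94) and Hpse2 (0.91). The list for Spred1 was Chd1 (0.98), Mtmr2 (0.98) and 2700078E11Rik (0.98), and for Il17rd Narg2 (0.99), Sdc1 (0.99) and Gli3 (0.99).

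How far cultured mesenchyme carries the FGF response of limb buds was addressed by setting each ES–LB against limb buds of its own type. Most of the genes were lower in the ES–LBs, the PEA3 factors Etv4 and Etv5 by the most, and Etv1 was higher in all 4 comparisons. ES–FLB had 8 of the 10 genes lower than the early FLBs and 1 higher, where 41.4% of all genes tested were called lower and 35.3% higher. The median of the 10 log2 fold changes was -1.15, against -0.052 over all genes. Etv4 was 5.44-fold lower in ES–FLB (log2 fold change -2.44, SE 0.094, adjusted p = 5.17e-21) and Etv5 4.35-fold lower (log2 fold change -2.12, SE 0.081, adjusted p = 5.29e-20). Of the feedback inhibitors, Spry1 was 3.23-fold lower (log2 fold change -1.69, SE 0.078, adjusted p = 4.64e-19), Spry4 2.24-fold (log2 fold change -1.17, SE 0.12, adjusted p = 1.43e-10) and Il17rd 2.18-fold (log2 fold change -1.13, SE 0.15, adjusted p = 1.16e-06). Dusp4 was 2.27-fold lower (log2 fold change -1.18, SE 0.087, adjusted p = 6.38e-14), Dusp6 1.66-fold (log2 fold change -0.73, SE 0.08, adjusted p = 7.06e-09) and Spred1 1.64-fold (log2 fold change -0.71, SE 0.059, adjusted p = 1.19e-12). Etv1 was 1.84-fold higher (log2 fold change 0.88, SE 0.13, adjusted p = 3.4e-07), and Spry2 did not pass (log2 fold change -0.14, SE 0.09, adjusted p = 0.17).

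ES–HLB had 6 of the 10 genes lower than the early HLBs and 3 higher, beside 40.5% and 34.8% of all genes. The median was -0.43, against -0.047 over all genes, while the CPM as deposited gave 3 of the 10 genes higher and 5 lower, with a median of -0.18. Etv4 was 4.55-fold lower (log2 fold change -2.19, SE 0.094, adjusted p = 1.54e-19), nearly as far as in the forelimb type, while Etv5 was 2.24-fold lower (log2 fold change -1.17, SE 0.081, adjusted p = 1.01e-13). Dusp6 (log2 fold change -0.96, SE 0.08, adjusted p = 3.94e-11), Il17rd (log2 fold change -0.69, SE 0.15, adjusted p = 0.000311) and Spry1 (log2 fold change -0.67, SE 0.078, adjusted p = 3.22e-09) were lower by less than 2-fold. Spry2 was 2.22-fold higher (log2 fold change 1.15, SE 0.09, adjusted p = 3.85e-13), Etv1 1.89-fold (log2 fold change 0.92, SE 0.13, adjusted p = 1.6e-07) and Dusp4 1.30-fold (log2 fold change 0.37, SE 0.087, adjusted p = 0.000264). Spry4 did not pass (log2 fold change -0.12, SE 0.12, adjusted p = 0.375). Spred1 was lower (log2 fold change -0.20, SE 0.059, adjusted p = 0.00318), but turned in direction with the CPM as deposited (log2 fold change 0.055, adjusted p = 0.383) and was not called with a median-of-ratios scaling (adjusted p = 0.131). The CPM as deposited move all ES–LB values against the early limb buds. Their median log2 fold change over all genes was 0.22 for the forelimb type and 0.18 for the hindlimb type, and 62.7% and 61.3% of the calls over all genes were higher, in place of 46.1% and 46.2%.

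**Figure D2:**
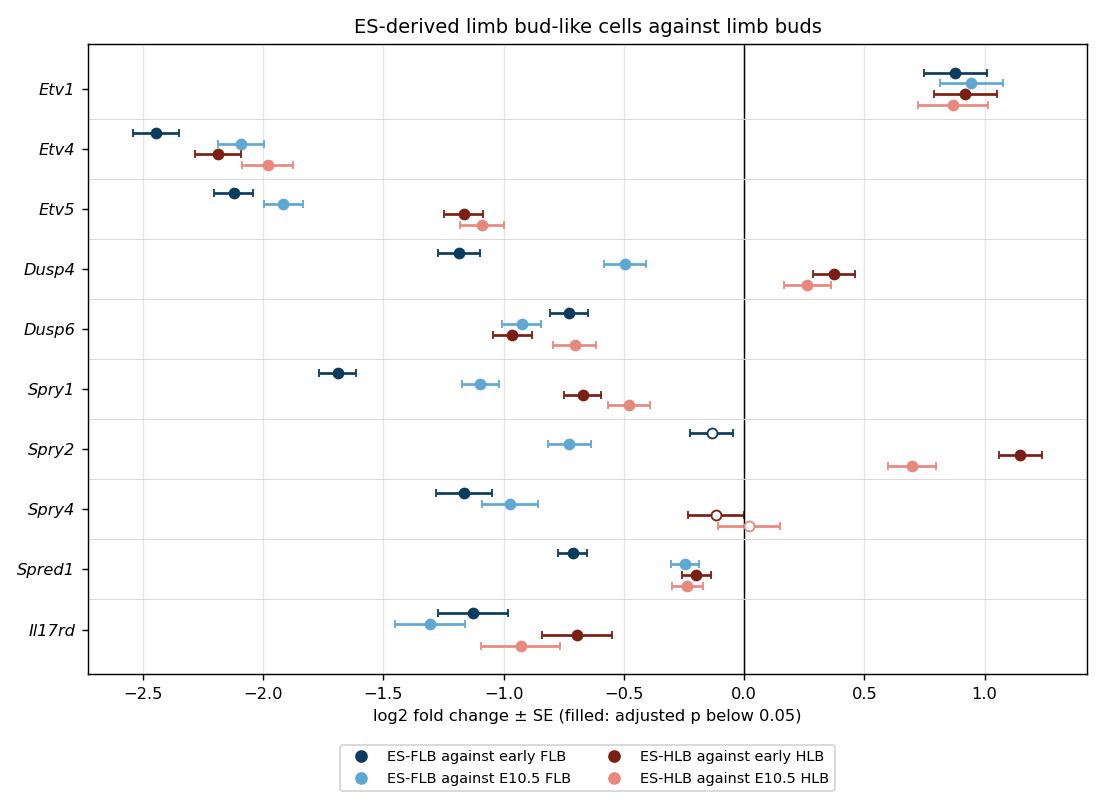
Log2 fold change of each gene (x axis, ± SE) in ES–FLB and ES–HLB against early and E10.5 limb buds of the same type, with filled points for an adjusted p below 0.05. Etv4 and Etv5 lie farthest to the left, Etv1 lies to the right near 0.9 in all 4 comparisons, and Dusp4 and Spry2 lie on the right for ES–HLB only.

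Against the E10.5 limb buds, in which the same ES–LB libraries serve again, the picture was much the same. ES–FLB had 9 genes lower and 1 higher than the E10.5 FLBs, beside 35.7% and 32.9% of all genes, with a median of -0.95 (-0.015 over all genes). Etv4 was 4.26-fold lower (log2 fold change -2.09, SE 0.094, adjusted p = 1.47e-18), Etv5 3.77-fold (log2 fold change -1.92, SE 0.081, adjusted p = 3.09e-18) and Il17rd 2.47-fold (log2 fold change -1.31, SE 0.15, adjusted p = 2.57e-07). Spry2, which did not pass against the early FLBs, was 1.66-fold lower than at E10.5 (log2 fold change -0.73, SE 0.09, adjusted p = 1.78e-08). ES–HLB had 6 genes lower and 3 higher than the E10.5 HLBs, beside 35.6% and 32.9% of all genes, with a median of -0.36 (-0.0037 over all genes). The deposited CPM gave 3 of the 10 genes higher and 5 lower, with a median of -0.21. Etv4 was 3.94-fold lower (log2 fold change -1.98, SE 0.11, adjusted p = 1.06e-16) and Etv5 2.13-fold (log2 fold change -1.09, SE 0.09, adjusted p = 1.11e-11), and Spry2 was 1.62-fold higher (log2 fold change 0.70, SE 0.1, adjusted p = 2.91e-07). Spry4 did not pass (log2 fold change 0.021, SE 0.13, adjusted p = 0.897). The small rise of Dusp4 (log2 fold change 0.26, SE 0.097, adjusted p = 0.0171) was no longer called without E10.5 HLB replicate 3 or ES–HLB replicate 2 (adjusted p = 0.118 and 0.0786). The small fall of Spred1 (log2 fold change -0.24, SE 0.066, adjusted p = 0.00217) was lost without E10.5 HLB replicate 1 and with the CPM as deposited (adjusted p = 0.13 and 0.243). For the hindlimb type that setting put the median of all genes at 0.13 and the share of higher calls at 59.3%, in place of 48.0%.

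The limb types in culture differed widely in these genes. ES–HLB was the higher for 8 of the 10 genes and the lower for 1, beside 10.8% and 8.89% of all genes, and the median log2 fold change was 0.81 (0.0034 over all genes). Spry2 was 2.27-fold higher in ES–HLB (log2 fold change 1.18, SE 0.09, adjusted p = 9.42e-12), Etv5 2.17-fold (log2 fold change 1.11, SE 0.081, adjusted p = 1.32e-11), Spry1 1.99-fold (log2 fold change 0.99, SE 0.078, adjusted p = 2.09e-11), Spry4 1.96-fold (log2 fold change 0.97, SE 0.12, adjusted p = 1.66e-07) and Dusp4 1.91-fold (log2 fold change 0.94, SE 0.087, adjusted p = 8.2e-10). Il17rd (log2 fold change 0.68, SE 0.15, adjusted p = 0.00257), Etv4 (log2 fold change 0.60, SE 0.094, adjusted p = 1.41e-05) and Dusp6 (log2 fold change 0.46, SE 0.08, adjusted p = 0.000121) were higher by less than 2-fold. The libraries of the ES–LB types did not overlap for any of the 10 genes, nor for 35.7% of all genes tested. Etv1 was lower (log2 fold change -0.38, SE 0.13, adjusted p = 0.0365), a call that was lost when ES–FLB replicate 1 or 2 or ES–HLB replicate 1 or 3 was left out (adjusted p from 0.0756 to 0.149), without the filter on low genes (0.0582) and without the variance trend (0.0616). Spred1 did not pass (log2 fold change 0.13, SE 0.059, adjusted p = 0.113). Beside these values, pluripotency markers summed to 45.6 to 65.9 scaled CPM in ES–HLB and 10.47 to 16.1 in ES–FLB, embryonic red cell markers to 83.0 to 156 and 5.13 to 7.79, endothelial markers to 45.0 to 53.7 and 32.8 to 34.2, tail bud markers to 7.23 to 11.1 and 1.79 to 2.38, surface ectoderm markers to 209.7 to 225 and 111 to 165, and AER markers to 9.85 to 10.9 and 5.36 to 6.31. Called higher in ES–HLB were 4 of 4 pluripotency, 4 of 5 red cell, 6 of 6 endothelial, 3 of 6 tail bud, 6 of 10 surface ectoderm and 3 of 6 AER markers. Whether those cells carry the difference was not tested. The forelimb type received RA and the hindlimb type the RA antagonist, so that limb type and these additions cannot be told apart in culture.

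In the embryo fewer of the 10 genes passed between the limb types. The early HLBs had 2 genes higher and 3 lower than the early FLBs, beside 8.34% and 10.6% of all genes, with a median of -0.053 (-0.0062 over all genes). Dusp6 was 1.62-fold higher in the early HLBs (log2 fold change 0.70, SE 0.08, adjusted p = 4.39e-07) and Etv4 1.27-fold (log2 fold change 0.34, SE 0.094, adjusted p = 0.00898). Dusp4 was 1.54-fold lower (log2 fold change -0.62, SE 0.087, adjusted p = 2.35e-06), Spred1 1.30-fold (log2 fold change -0.38, SE 0.059, adjusted p = 1.23e-05) and Etv1 1.34-fold (log2 fold change -0.42, SE 0.13, adjusted p = 0.0204). The Etv4 call was lost without early FLB replicate 3 or early HLB replicate 1 (adjusted p = 0.0583 and 0.0626), and the Etv1 call without early FLB replicate 1 or early HLB replicate 2 (adjusted p = 0.0736 and 0.0896) and with the CPM as deposited (0.0509). At E10.5, 3 genes were higher in the HLBs, beside 12.7% of all genes, and 0 lower by limma, beside 9.79% (median 0.21, 0.013 over all genes). They were Etv4 (log2 fold change 0.49, SE 0.11, adjusted p = 0.0011), Spry1 (log2 fold change 0.37, SE 0.087, adjusted p = 0.00219) and Etv5 (log2 fold change 0.29, SE 0.09, adjusted p = 0.0214). Spry1 was not called without E10.5 HLB replicate 3 (adjusted p = 0.0671). Etv5 was not called without E10.5 FLB replicate 3 or E10.5 HLB replicate 1 (adjusted p = 0.0708 and 0.255), nor with the CPM as deposited (0.0976). At an unadjusted p below 0.05, 2 genes were lower, Etv1 (log2 fold change -0.30, SE 0.15, adjusted p = 0.138) and Spry2 (log2 fold change -0.24, SE 0.1, adjusted p = 0.0784). Spry2 was called lower with the CPM as deposited (adjusted p = 0.0218), with the truncated library kept (0.0221) and with both groups fitted alone (0.041), and Etv1 without E10.5 HLB replicate 1 (0.0291). Etv4 was the only gene of the 10 called higher in the hindlimb type in all 3 comparisons. The scaling bears on these small differences. With the CPM as deposited, 60.8% of the calls over all genes were higher in the early HLBs, in place of 43.9%, and 28.5% in the E10.5 HLBs, in place of 56.4%. For the early limb buds they gave 2 of the 10 genes higher and 2 lower, with a median of -0.00059, and for those of E10.5 2 of the 10 genes higher and 1 lower, with a median of 0.13.

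**Figure D3:**
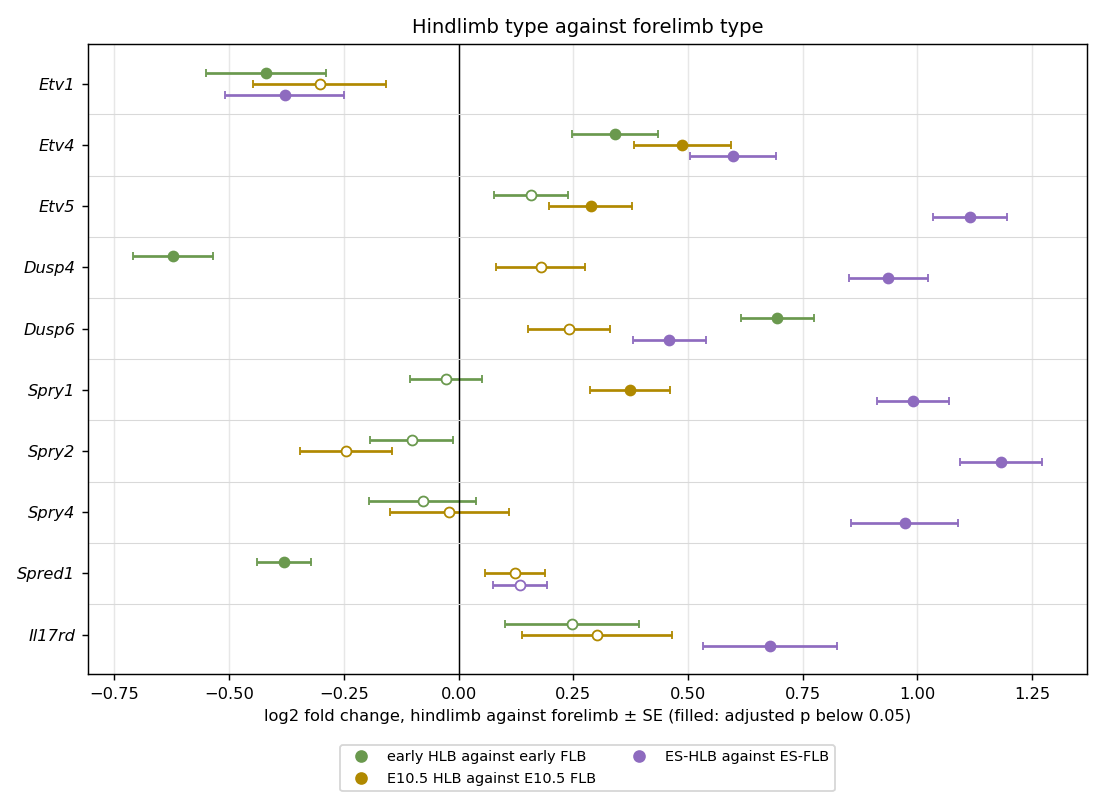
Log2 fold change of each gene (x axis, ± SE) in the hindlimb type against the forelimb type, for early limb buds, E10.5 limb buds and ES–LBs, with filled points for an adjusted p below 0.05. For Etv4, Etv5, Dusp4, Spry1, Spry2, Spry4, Il17rd and, by little, Spred1 the ES–LB point lies to the right of both embryonic points. Dusp4 has opposite signs in the ES–LBs (0.94) and the early limb buds (-0.62).

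Whether the hindlimb minus forelimb difference had another value in culture than in the early limb buds was tested as an interaction. It passed in the direction of ES–HLB for 6 of the 10 genes, beside 11.3% of all genes, and in the other direction for 0 by limma, beside 8.6% (for 1, Dusp6, at an unadjusted p below 0.05). The median of the 10 differences was 0.74 (0.012 over all genes). The 6 were Dusp4 (difference of 1.56 on the log2 scale, SE 0.12, adjusted p = 6.31e-11), Spry2 (difference of 1.28 on the log2 scale, SE 0.13, adjusted p = 5.12e-09), Spry4 (difference of 1.05 on the log2 scale, SE 0.16, adjusted p = 1.75e-05), Spry1 (difference of 1.02 on the log2 scale, SE 0.11, adjusted p = 3e-08), Etv5 (difference of 0.96 on the log2 scale, SE 0.11, adjusted p = 3.41e-07) and Spred1 (difference of 0.51 on the log2 scale, SE 0.083, adjusted p = 2.52e-05). For Etv4 (difference of 0.26 on the log2 scale, SE 0.13, adjusted p = 0.193), Etv1 (difference of 0.041 on the log2 scale, SE 0.18, adjusted p = 0.923), Dusp6 (difference of -0.24 on the log2 scale, SE 0.11, adjusted p = 0.158) and Il17rd (difference of 0.43 on the log2 scale, SE 0.21, adjusted p = 0.168) it did not pass. With the CPM as deposited, Dusp6 passed in the other direction (adjusted p = 0.0387), and without early FLB replicate 3, Il17rd passed in the direction of ES–HLB (adjusted p = 0.0447). With the CPM as deposited, 44.8% of the calls over all genes were higher, in place of 56.9%. A positive interaction need not mean a larger difference in culture. Spred1 had a log2 fold change of 0.13 between the ES–LBs, which was not called, and of -0.38 between the early limb buds. For Dusp4 the signs were opposite, at 0.94 and -0.62. Limb type in culture cannot be told apart from the RA or its antagonist that the aggregates received.

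Between the stages, 5 of the genes were lower and Spry2 and Dusp6 higher in the later forelimb buds. Against the early FLBs, which also serve in the comparisons above, the E10.5 FLBs had 5 of 10 genes lower and 2 higher, beside 36.1% and 24.3% of all genes, with a median of -0.20 (-0.076 over all genes). Dusp4 fell 1.61-fold (log2 fold change -0.69, SE 0.087, adjusted p = 3.47e-08), Spry1 1.51-fold (log2 fold change -0.59, SE 0.078, adjusted p = 7.88e-08) and Spred1 1.38-fold (log2 fold change -0.47, SE 0.059, adjusted p = 3.6e-08), and Spry2 rose 1.51-fold (log2 fold change 0.59, SE 0.09, adjusted p = 9.93e-07). Etv4 (log2 fold change -0.35, SE 0.094, adjusted p = 0.00171) was not called with the CPM as deposited (adjusted p = 0.3). The changes of Etv5 (log2 fold change -0.21, SE 0.081, adjusted p = 0.0289) and Dusp6 (log2 fold change 0.20, SE 0.08, adjusted p = 0.0363) were close to the threshold. Etv5 turned in direction with the CPM as deposited (log2 fold change 0.032, adjusted p = 0.745) and was not called without early FLB replicate 1 or 2 or E10.5 FLB replicate 1 or 3 (adjusted p from 0.0533 to 0.131). Dusp6 was not called without early FLB replicate 3 or E10.5 FLB replicate 1 or 2 (adjusted p from 0.0874 to 0.235). With the CPM as deposited, 66.6% of the calls over all genes were higher, in place of 40.2%. Their median over all genes was 0.13, and they gave 3 of the 10 genes higher and 3 lower, with a median of 0.037, so that the median turned in sign. Il17rd was then called higher (log2 fold change 0.42, adjusted p = 0.0215).

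In the hindlimb buds 2 of the 10 genes passed, 1 lower and 1 higher at E10.5, beside 31.5% of all genes in either direction (median -0.019, -0.06 over all genes). Spry2 rose 1.37-fold (log2 fold change 0.45, SE 0.1, adjusted p = 0.00081), as in the forelimb. Dusp6 was lower (log2 fold change -0.26, SE 0.089, adjusted p = 0.029), a call that was lost without early HLB replicate 2 or 3 or E10.5 HLB replicate 3 (adjusted p = 0.0872, 0.0939 and 0.375) and with both other scalings (0.139 and 0.0667). Of the calls over all genes, 33.3% were higher, against 58.4% with the CPM as deposited and 43.5% with the median of ratios. As deposited, the CPM gave 1 of the 10 genes higher and 0 lower, with a median of 0.083, of the other sign than the main value. The change with stage differed between the limb types for 4 genes. It was higher in the hindlimb for 3, beside 12.8% of all genes, namely Dusp4 (difference of 0.80 on the log2 scale, SE 0.13, adjusted p = 4.04e-05), Spred1 (difference of 0.50 on the log2 scale, SE 0.088, adjusted p = 9.97e-05) and Spry1 (difference of 0.40 on the log2 scale, SE 0.12, adjusted p = 0.0125), and lower for Dusp6 (difference of -0.46 on the log2 scale, SE 0.12, adjusted p = 0.00736), beside 9.38% (median 0.12, 0.026 over all genes). Spry1 and Dusp6 were not called here without E10.5 HLB replicate 3 (adjusted p = 0.0964 and 0.0707), and Spry1 not with the CPM as deposited (0.12), where the median of all genes was -0.10 and 26.3% of all calls were higher, in place of 57.7%. The CPM as deposited gave 2 of the 10 genes higher and 1 lower, with a median of -0.011, also of the other sign. AER markers summed to 136 to 165 scaled CPM in the early FLBs and 53.0 to 59.0 in the E10.5 FLBs, and to 135 to 152 and 80.6 to 82.5 in the HLBs, and their part in the change with stage was not tested.

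The 3 other tissues of E10.5 embryos were each set against the E10.5 FLBs, which are the shared reference. BA, an outgrowth of cranial mesenchyme, differed from the forelimb bud in all 10 genes: 9 were lower and Etv1 was higher, beside 9.7% and 11% of all genes. The median log2 fold change was -0.69 (0.00038 over all genes), and the libraries of the groups overlapped for none of the 10 genes, as for 33.1% of all genes. Spry4 was 2.77-fold lower in BA (log2 fold change -1.47, SE 0.12, adjusted p = 1.56e-11), Dusp4 1.97-fold (log2 fold change -0.98, SE 0.087, adjusted p = 1.48e-10) and Dusp6 1.96-fold (log2 fold change -0.97, SE 0.08, adjusted p = 5.72e-10). Il17rd (-0.79), Spry2 (-0.76), Etv5 (-0.63), Etv4 (-0.59), Spry1 (-0.55) and Spred1 (-0.30) had smaller log2 fold changes. Etv1 was 1.86-fold higher (log2 fold change 0.90, SE 0.13, adjusted p = 2.74e-06). AER markers summed to 20.2 to 24.0 scaled CPM in BA and 53.0 to 59.0 in the E10.5 FLBs (5 of 6 lower), and neuron markers to 34.4 to 171 and 16.9 to 21.3 (4 of 4 higher). The part of these cells in the values of BA was not tested.

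In Ca 7 genes were lower and Etv1 higher than in the E10.5 FLBs, beside 38.6% and 36.1% of all genes, with a median of -1.18 (-0.028 over all genes). Il17rd was 8.90-fold lower (log2 fold change -3.15, SE 0.15, adjusted p = 3.42e-13), Dusp6 3.60-fold (log2 fold change -1.85, SE 0.08, adjusted p = 5.82e-17), Spry1 3.27-fold (log2 fold change -1.71, SE 0.078, adjusted p = 3.96e-19) and Etv4 3.16-fold (log2 fold change -1.66, SE 0.094, adjusted p = 1.28e-16). Spry4 (-1.28), Spred1 (-1.08) and Etv5 (-1.08) were lower with log2 fold changes near -1. Etv1 was 1.78-fold higher (log2 fold change 0.83, SE 0.13, adjusted p = 9.87e-07). Dusp4 (log2 fold change 0.054, SE 0.087, adjusted p = 0.58) and Spry2 (log2 fold change -0.14, SE 0.09, adjusted p = 0.166) did not pass, but Spry2 did with the CPM as deposited and without Ca replicate 1 (adjusted p = 0.0148 and 0.0271). Heart markers (7 genes) summed to 20857 to 24629 scaled CPM in Ca and 3.06 to 8.09 in the E10.5 FLBs, and red cell markers to 22586 to 32843 and 2646 to 3819. The median of all genes was -0.13 with the CPM as deposited. The part of heart and red cells in the lower levels was not tested.

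TB, which holds the FGF-producing progenitors of the trunk and tail, had 8 genes lower than the E10.5 FLBs and 1 higher, beside 22.2% and 23.4% of all genes, with a median of -0.74 (0.0091 over all genes). Dusp4 was 2.94-fold higher in TB (log2 fold change 1.56, SE 0.087, adjusted p = 6.74e-16), whereas its relative Dusp6 was 1.96-fold lower (log2 fold change -0.97, SE 0.08, adjusted p = 1.87e-10). Il17rd (log2 fold change -0.96, SE 0.15, adjusted p = 2.77e-05), Spry1 (log2 fold change -0.84, SE 0.078, adjusted p = 1.26e-10) and Etv5 (log2 fold change -0.81, SE 0.081, adjusted p = 1.56e-09) were lower, and Etv1, higher in BA and Ca, was here lower too (log2 fold change -0.72, SE 0.13, adjusted p = 2.73e-05). Etv4 did not pass (log2 fold change -0.037, SE 0.094, adjusted p = 0.781). Spred1 (log2 fold change -0.18, SE 0.059, adjusted p = 0.0125) was lost without E10.5 FLB replicate 2 (adjusted p = 0.0567). Tail bud markers (6 genes) summed to 245 to 299 scaled CPM in TB and 6.41 to 8.26 in the E10.5 FLBs.

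**Figure D4:**
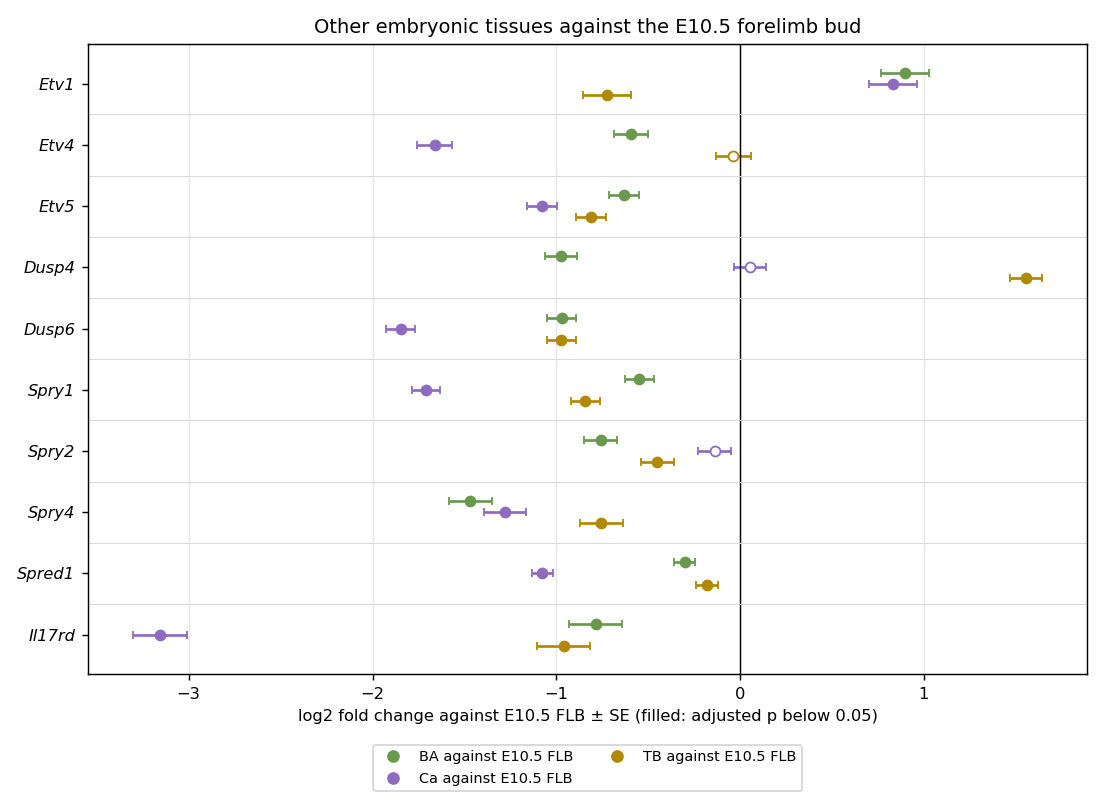
Log2 fold change of each gene (x axis, ± SE) in BA, Ca and TB against the E10.5 FLBs, with filled points for an adjusted p below 0.05. Most points lie to the left of 0, the farthest is Il17rd in Ca at -3.15, and Dusp4 in TB at 1.56 and Etv1 in BA and Ca (0.90 and 0.83) lie to the right.

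The ligands, receptors and relay that act above these genes were read from lists written for the purpose. Of 18 FGF ligands, 11 passed the filter on low values and were tested. In ES–FLB 5 were higher and 3 lower than in the early FLBs (median 0.055), beside 35.3% higher and 41.4% lower over all genes. In ES–HLB 6 were higher and 2 lower than in the early HLBs (median 0.79), beside 34.8% higher and 40.5% lower over all genes. Against the E10.5 FLBs, 3 were higher and 7 lower in ES–FLB (median -0.72), beside 32.9% and 35.7% of all genes. Against the E10.5 HLBs, 4 were higher and 3 lower in ES–HLB (median -0.16), beside 32.9% and 35.6% of all genes. The AER ligand Fgf8 was at 25.96 to 35.7 scaled CPM in the early FLBs, 50.7 to 60.8 in the early HLBs, 17.0 to 23.7 in the E10.5 FLBs and 39.3 to 42.1 in the E10.5 HLBs. It was at 0 to 0.239 in ES–FLB, under the floor of 3 reads, and at 0.748 to 1.39 in ES–HLB. In BA, Fgf8 was at 8.46 to 12.5, in TB at 9.40 to 10.9 and in Ca at 0.269 to 0.766. Like Etv4, Fgf8 was higher in the hindlimb type among early limb buds (log2 fold change 0.88, SE 0.19, adjusted p = 0.00112) and at E10.5 (log2 fold change 0.98, SE 0.22, adjusted p = 0.00134). Fgf4, also an AER ligand, was low throughout, at 0 to 0.0539 in the early FLBs, 0.848 to 3.47 in the early HLBs, 0.861 to 1.81 and 3.72 to 5.31 in the E10.5 FLBs and HLBs, 0.358 to 0.766 in ES–FLB, 2.79 to 3.49 in ES–HLB and 2.73 to 3.94 in TB, and was listed at 0 in each BA and Ca library. Mesenchymal Fgf10 was lower in ES–FLB than in the early FLBs (27.6 against 71.5, log2 fold change -1.36, SE 0.091, adjusted p = 5.8e-15) and in ES–HLB than in the early HLBs (17.1 against 50.9, log2 fold change -1.55, SE 0.091, adjusted p = 2.92e-16). Fgf15 was at 9.52 ± 1.12 in ES–FLB, 34.7 ± 5.34 in ES–HLB and 29.7 ± 5.39 in TB (SD, n = 3 each), and at 0.974 and 0.647 in the early FLBs and HLBs. ES–HLB exceeded ES–FLB (log2 fold change 1.81, SE 0.22, adjusted p = 2.57e-07). Of the 11 ligands, 5 were higher and 2 lower in ES–HLB than in ES–FLB, beside 10.8% higher and 8.89% lower over all genes.

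Fgf10 was at 31.9 in the E10.5 FLBs, 40.4 in the E10.5 HLBs, 15.7 in BA and 8.84 in Ca. In TB, 5 of the 11 ligands were higher and 4 lower than in the E10.5 FLBs, beside 23.4% higher and 22.2% lower over all genes. Fgf15 was at 25.7 to 35.8 in TB and 0.170 to 0.493 in the E10.5 FLBs (adjusted p = 6.67e-19), Fgf3 at 8.77 to 12.99 and 0 to 0.170 (adjusted p = 4.82e-15) and Fgf17 at 17.1 to 24.6 and 0.849 to 1.03 (adjusted p = 1.41e-14). No folds are given for Fgf15 and Fgf3, since the E10.5 FLB levels were at or under the floor. Fgf10 was lower in TB, at 1.61 (log2 fold change -3.94, SE 0.091, adjusted p = 7.61e-26). In Ca, 2 ligands were higher and 5 lower, beside 36.1% higher and 38.6% lower over all genes. There Fgf1 was at 13.1 scaled CPM against 1.07 in the E10.5 FLBs (log2 fold change 3.14, SE 0.32, adjusted p = 3.57e-10), while the receptors Fgfr1 (log2 fold change -1.99, SE 0.062, adjusted p = 2.53e-22) and Fgfr2 (log2 fold change -1.04, SE 0.1, adjusted p = 2.12e-09) were lower. In BA, 1 ligand was higher and 5 lower, Fgf8 among them (log2 fold change -1.02, SE 0.19, adjusted p = 0.000147), beside 11% higher and 9.7% lower over all genes.

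Among the receptors, Fgfr1 was higher and Fgfr2 lower in the ES–LBs. Of 9 receptors and co-receptors tested, 5 were higher and 2 lower in ES–FLB than in the early FLBs (median 0.65), beside 35.3% higher and 41.4% lower over all genes, and 6 higher and 1 lower in ES–HLB than in the early HLBs (median 0.89), beside 34.8% higher and 40.5% lower over all genes. Fgfr1, the main receptor of limb mesenchyme, was at 506 ± 6.26 scaled CPM in ES–FLB and 508 ± 10.7 in ES–HLB, against 223 ± 9.48 in the early FLBs and 274 ± 28.7 in the early HLBs (SD, n = 3 each), a rise of 2.26-fold in the forelimb type (log2 fold change 1.18, SE 0.062, adjusted p = 7.46e-17) and 1.85-fold in the hindlimb type (log2 fold change 0.89, SE 0.062, adjusted p = 7.51e-14). Fgfr2 was lower (log2 fold change -0.48, SE 0.1, adjusted p = 0.000152 for ES–FLB, log2 fold change -0.55, SE 0.1, adjusted p = 3.25e-05 for ES–HLB). Fgfr3 was lower in ES–FLB (log2 fold change -1.31, SE 0.18, adjusted p = 1.27e-07) and did not pass in ES–HLB (log2 fold change 0.27, SE 0.18, adjusted p = 0.174), and Fgfr4 had group means from 0.891 to 5.48 scaled CPM. The adhesion protein and co-receptor gene Flrt2 was higher in both (log2 fold change 1.65, SE 0.13, adjusted p = 4.27e-10 and log2 fold change 2.22, SE 0.13, adjusted p = 3.8e-12). Fgfr1 was at 356 in the E10.5 FLBs, 343 in the E10.5 HLBs, 275 in BA, 260.1 in TB and 89.6 in Ca, while Fgfr2 was highest in the early FLBs (149) and TB (145) and Fgfr3 in TB (29.2). Fgfr1 did not differ past the threshold between ES–HLB and ES–FLB (adjusted p = 0.98).

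Of 22 genes of the Ras to ERK relay tested, 9 were higher and 10 lower in ES–FLB than in the early FLBs, and 9 higher and 9 lower in ES–HLB than in the early HLBs, beside 35.3% higher and 41.4% lower over all genes and 34.8% higher and 40.5% lower over all genes, with medians of -0.0046 and 0.015. Between the ES–LB types 2 of the 22 were higher in ES–HLB and 1 lower, beside 10.8% higher and 8.89% lower over all genes. The adaptor gene Gab1 was higher in both ES–LBs (log2 fold change 1.69, SE 0.054, adjusted p = 5.07e-23 and log2 fold change 2.04, SE 0.054, adjusted p = 2.55e-24), and Cbl, whose product tags receptors for breakdown, was lower (log2 fold change -1.64, SE 0.085, adjusted p = 1.58e-17 and log2 fold change -1.41, SE 0.085, adjusted p = 8.39e-16). Nras was lower (log2 fold change -1.30, SE 0.049, adjusted p = 3.09e-21 and log2 fold change -1.07, SE 0.049, adjusted p = 7.26e-19), and Map2k1, which encodes Mek1, was lower by more than 2-fold in ES–FLB (log2 fold change -1.49, SE 0.078, adjusted p = 1.37e-17). Cic, the repressor whose core was searched above, was at 316 ± 9.54 scaled CPM in ES–FLB and 275 ± 9.62 in ES–HLB, against 115 ± 3.16 in the early FLBs and 118 ± 6.02 in the early HLBs (SD, n = 3 each). It was 2.74-fold higher in ES–FLB (log2 fold change 1.45, SE 0.055, adjusted p = 2.73e-21) and 2.33-fold in ES–HLB (log2 fold change 1.22, SE 0.055, adjusted p = 3.87e-19), and any bearing of this on the 10 genes was not tested.

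Of 12 other genes tested that ERK activity raises, 8 were higher and 3 lower in ES–FLB than in the early FLBs (median 2.38), beside 35.3% higher and 41.4% lower over all genes, and 8 higher and 3 lower in ES–HLB than in the early HLBs (median 1.87), beside 34.8% higher and 40.5% lower over all genes. No test compared this list with the 10 genes. The higher ones were led by immediate early genes, which respond to many stimuli within minutes. Egr1 was at 453 to 691 scaled CPM in ES–FLB and 384 to 489 in ES–HLB, against 11.2 to 12.4 in the early FLBs and 4.08 to 6.24 in the early HLBs (log2 fold change 5.59, SE 0.4, adjusted p = 2.63e-10 and log2 fold change 6.24, SE 0.4, adjusted p = 5.69e-11). Fos (log2 fold change 6.64, SE 0.67, adjusted p = 4.48e-08 and log2 fold change 6.46, SE 0.67, adjusted p = 7.09e-08) and Junb (log2 fold change 3.11, SE 0.19, adjusted p = 7.9e-13 and log2 fold change 2.47, SE 0.19, adjusted p = 6.37e-11) were higher too. Epha2 was lower in ES–FLB (log2 fold change -2.43, SE 0.12, adjusted p = 3.02e-18), and higher in ES–HLB than in ES–FLB (log2 fold change 1.83, SE 0.12, adjusted p = 4.66e-13). It was the only one of the 12 called higher in ES–HLB than in ES–FLB, and 5 were called lower. Over all genes 10.8% were higher and 8.89% lower there, and the median of the 12 was -0.47 (0.0034 over all genes). Only the ES–LBs were dissociated and sorted, so the sort, the origin of the cells and the additions to their medium cannot be told apart in these values. In the embryo Myc fell with stage in the FLBs (log2 fold change -1.59, SE 0.14, adjusted p = 1.54e-09) and in the HLBs (log2 fold change -1.41, SE 0.15, adjusted p = 4.35e-07).

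**Figure D5:**
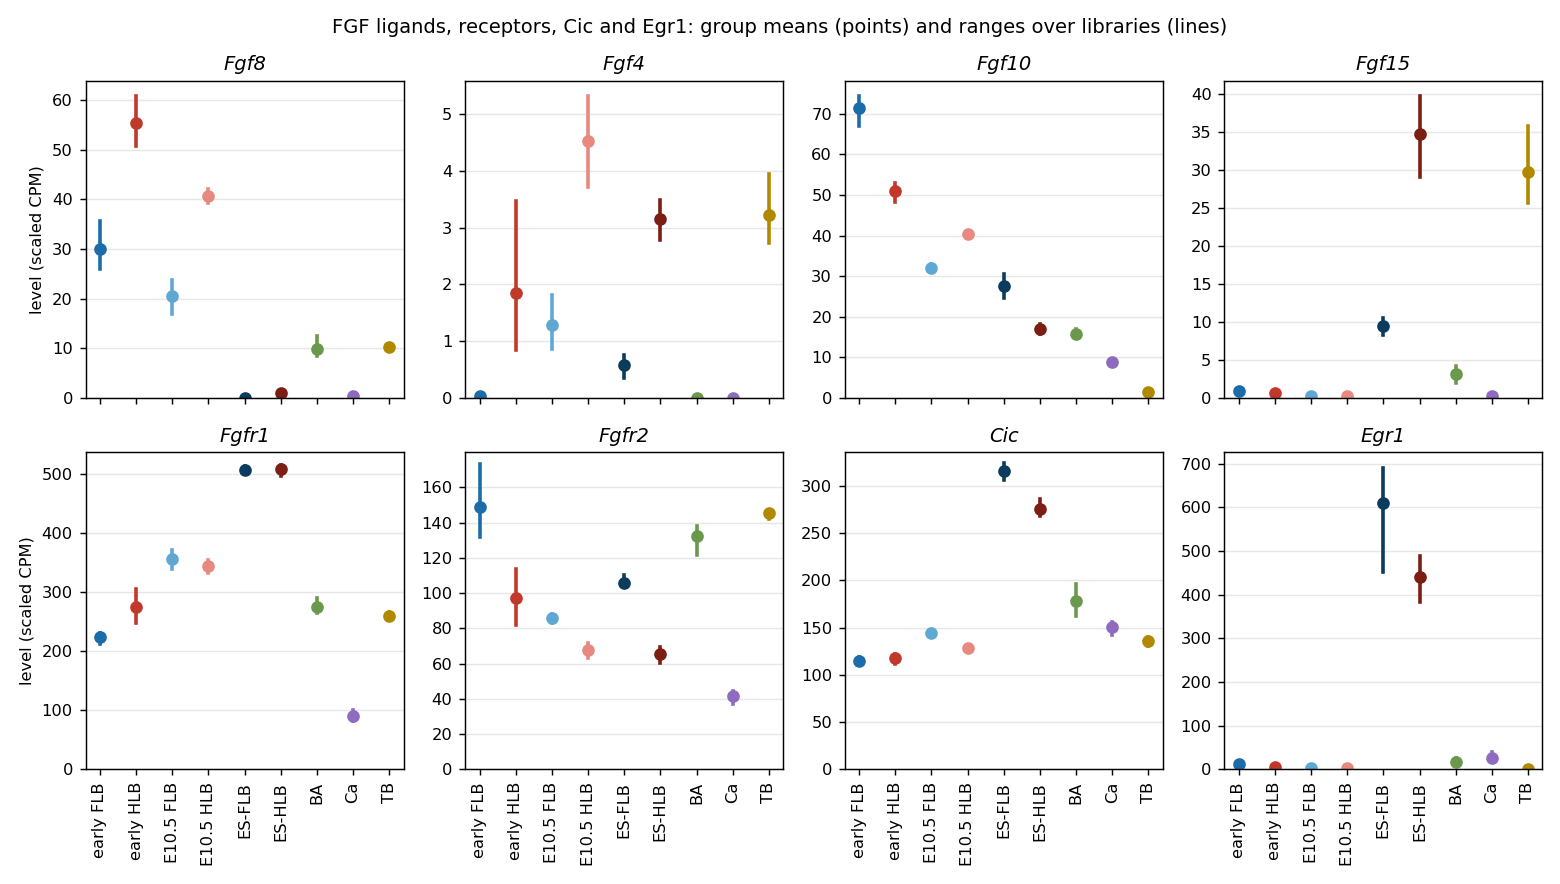
Level (scaled CPM, linear axis from 0) of 4 FGF ligands, 2 receptors, the repressor gene Cic and the immediate early gene Egr1 in the 9 groups, as group mean (point) and range over the libraries (line). Fgf8 is close to 0 in the ES–LBs and Ca and highest in the hindlimb buds, Fgf15 is high in ES–HLB and TB, and Fgfr1, Cic and Egr1 are highest in the ES–LBs.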

How the data were processed

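The deposited table holds gene-level counts per 1000000 reads (CPM) for 27 libraries made with a stranded mRNA kit. Per the labels, the authors aligned reads to mm10 with HISAT2 2.0.4 and used Cufflinks 2.1.1, Cuffdiff and edgeR 3.16.2. By the study's methods, Cuffdiff estimated the fragments of each gene, and these estimates, which need not be whole, went to edgeR. The strand setting is not given in the sources used here. Each deposited CPM column sums to 1000000, with no further scaling in the values. Deposited CPM were scaled by an unweighted trimmed mean of log ratios (30% of ratios and 5% of intensities trimmed at each end) over 26 libraries. Genes that reached 1 CPM in 3 or more libraries were fitted with limma 3.58.1 (trend, robust) on log2(CPM + 0.5), in 1 model of 9 groups, with 12 comparisons of groups, 2 interactions and all 36 pairs of groups, each adjusted over all genes tested. Of the low values, 94.3% to 99.3% per library were whole multiples of 1 step within 0.02 reads, but whole reads were not recovered to the standard set for a count test, so none was run. Depth was estimated from the spacing of low values. The fit was tested on simulated data with changed genes. The genes, lists and markers were chosen with earlier results of these data known. Other genes were named, as far as space allowed, by a rule: of each list, at most 6 per comparison with the largest change among those called past 2-fold at 5 CPM or more, plus Fgf4, Fgf8, Fgf10 and Fgfr1 to Fgfr4. Alternatives were other scalings, filters, pseudocounts, variance models and thresholds, the compared groups alone, the replicate block, the left-out library kept with its zeros as missing, and each library left out in turn. Of the genes most like Spry1, 1 is not reported here. Positions are from GRCm38 and promoter windows from RefSeq on GRCm38.p6.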

Additional observations from a re-analysis of the deposited data

Results flagged for a closer look

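The difference of the hindlimb type minus the forelimb type was higher in culture than in the early embryo for 6 genes, by limma's interaction test over all genes, and the log2 differences of differences were 0.96 for Etv5, 1.56 for Dusp4, 1.02 for Spry1, 1.28 for Spry2, 1.05 for Spry4 and 0.51 for Spred1. The early FLBs and HLBs differ in stage by the figure legend of the study, so that stage and limb type cannot be told apart in that pair. Between the ES–LBs, limb type cannot be told apart from the RA or its antagonist. By the same kind of test, the change from the early limb bud to E10.5 differed between the limb types. As hindlimb minus forelimb, the differences were 0.80 for Dusp4, 0.40 for Spry1, 0.50 for Spred1 and -0.46 for Dusp6. These signs are those of the change with stage and not of the levels.

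The E10.5 HLB library that was left out still held values for 9 of the 10 genes. As deposited, Etv1 was at 17.5 CPM there, Etv4 at 135, Etv5 at 238, Dusp6 at 375, Spry1 at 75.6, Spry2 at 52.2, Spry4 at 49.4, Spred1 at 171 and Il17rd at 355 CPM. Dusp4 was listed at 0. The CPM of this column are shared among fewer genes, since 13642 genes were listed at 0, so its values cannot be set beside the other libraries as deposited.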

How the results depend on the processing

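Each of the 140 tests of the 10 genes was repeated under the alternatives, which gave 2320 values, of which 2259 kept their side of the threshold, 43 lost the call, 16 gained one and 2 turned in direction. Direction was compared only where the main or the alternative value was called. Both that turned did so with the CPM as deposited: Spred1 in ES–HLB against early HLB (log2 fold change 0.055) and Etv5 in E10.5 FLB against early FLB (0.032). The counts of called genes stayed within 1.5 times except as follows, and the cause was not tested. At an adjusted p below 0.001 the count fell from 5 to 3 for early HLB against early FLB, from 3 to 0 for E10.5 HLB against E10.5 FLB, from 7 to 4 for E10.5 FLB against early FLB, from 2 to 1 for E10.5 HLB against early HLB and from 4 to 2 for the stage interaction. With the compared groups fitted alone, E10.5 HLB against E10.5 FLB rose from 3 to 6, with Dusp6, Spry2 and Il17rd added. E10.5 HLB against early HLB fell from 2 to 1 with the CPM as deposited, with the median of ratios and with no variance trend. Leaving out 1 library at a time gave 1 to 2 for E10.5 HLB against early HLB (1 without early HLB replicate 3 or E10.5 HLB replicate 3) and 2 to 4 for the stage interaction (2 without E10.5 HLB replicate 3). Where this left 1 E10.5 HLB library, it was assumed to vary like the other groups. The shared replicate numbers were not taken to pair the libraries, since over 84 pairs of same-numbered libraries the correlation of deviations from the group means ran from -0.087 to 0.13 and was over 0.1 in 3. Still, 53 of 84 matched best with their own number out of 3, which is a hint from the data and not from the design. With the replicate number as a block 1 call changed, Dusp6 in E10.5 HLB against E10.5 FLB, which passed (log2 fold change 0.25, adjusted p = 0.0318). The count test by edgeR that was planned was not run, as whole reads were not recovered to the standard set for it. Precision is limited by 2 or 3 libraries a group and by depth, which was least in the E10.5 limb buds.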

Other observations

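Other brakes of the same families were read beside the 10 genes: of 8 tested, 6 were lower and 2 higher in ES–FLB than in the early FLBs (median log2 fold change -1.07, -0.052 over all genes), beside 35.3% higher and 41.4% lower over all genes. In ES–HLB 6 were lower and 2 higher than in the early HLBs (median -0.66, -0.047 over all genes), beside 34.8% higher and 40.5% lower over all genes. The ERK phosphatase gene Dusp9 was at 31.0 ± 4.80 scaled CPM in ES–FLB against 247 ± 17.1 in the early FLBs (SD, n = 3 each), a fall larger than that of any of the 10 genes (log2 fold change -2.98, SE 0.13, adjusted p = 6.87e-14), and at 42.8 ± 1.33 in ES–HLB against 318 ± 34.4 in the early HLBs (SD, n = 3 each, log2 fold change -2.87, SE 0.13, adjusted p = 1.59e-13). Dusp5, another nuclear phosphatase gene, was at 11.4 in the early FLBs, 1.68 in the E10.5 FLBs and 1.05 in ES–FLB, and the last pair did not differ past the threshold (log2 fold change -0.47, SE 0.23, adjusted p = 0.0721). Dusp7, which like Dusp6 encodes a cytoplasmic phosphatase, was lower in ES–FLB (log2 fold change -0.84, SE 0.07, adjusted p = 1.27e-12) and in ES–HLB (log2 fold change -0.58, SE 0.07, adjusted p = 7.55e-09). Errfi1, an inhibitor of the EGF receptor, was lower in ES–FLB (log2 fold change -1.30, SE 0.088, adjusted p = 8.93e-15) and by less in ES–HLB (log2 fold change -0.26, SE 0.088, adjusted p = 0.00971). Of the Spred genes, Spred2 was lower in both ES–LBs (log2 fold change -0.85, SE 0.079, adjusted p = 1.84e-11 and log2 fold change -0.75, SE 0.079, adjusted p = 4.13e-10), while Spred3 was higher (log2 fold change 1.54, SE 0.14, adjusted p = 1.06e-11 and log2 fold change 1.39, SE 0.14, adjusted p = 1.44e-10). Dusp1, which stress and growth signals raise, was higher too (log2 fold change 0.96, SE 0.13, adjusted p = 3.66e-08 and log2 fold change 0.73, SE 0.13, adjusted p = 4.78e-06). The ES–LB cells differ from the limb buds in sorting, in origin and in the additions to their medium, hydrocortisone among them, and these cannot be told apart.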
